A study of Mus musculus with 2 samples.

Results

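The epidermal growth factor (EGF) family was followed in 2 cultured mouse lung squamous cell carcinoma (SCC) lines, as 7 ligand genes (Egf, Tgfa, Areg, Ereg, Btc, Hbegf and Epgn) and 3 receptor genes (Egfr, Erbb2 and Erbb3). These 10 genes, of 20679 that the table names, were chosen by family name, with earlier fold changes of the same comparison known. The values below are therefore a description, with no test. They were read by 21 of the 45101 probe sets on the array, the sets of short oligonucleotides that each measure a transcript; 11 read ligands and 10 read receptors. Of the 10 genes, 5 have 1 probe set and 5 have 2 or more, and 0 of the 21 probe sets name a second gene.

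Total RNA came from lines S1 and S2, both grown in DMEM with serum. In the series description S1 is the more tumorigenic line with high Sca1 and S2 the less tumorigenic line with low Sca1. Both were sorted, on Sca1 and CD24, from the KALLU culture of a lung SCC of KA/KA mice (FVB), which carry a kinase-dead IKKα knocked in at the germline, so both lines share that mutation and each is a single sorted culture; the paper's names KALLU+ and KALLU- fit S1 and S2 by these descriptions. The labels give 1 sample per line, and the table holds 1 value per probe set, the authors' signed linear fold change of S1 over S2, with no signal or p-value; no difference has a replicate check, and the brightness of each probe set is unknown. By the paper, KALLU+ was sorted as high in Sca1 and negative for CD24, and KALLU- as low in Sca1 and positive for CD24. As a check of the labels, Cd24a was lower in S1 at all 3 of its probe sets (log2 fold change -5.96 to -5.31). That is the direction of the sort if S1 is KALLU+. Ly6a, which encodes Sca1, was also lower in S1 (-2.57 at 1 probe set), against its label. With the labels exchanged, Ly6a would go with the sort and Cd24a against it. The lines are therefore called the line labelled S1 and the line labelled S2. Were the labels exchanged, the sign of each fold change, the ranks and percentiles and each statement of higher or lower below would turn, while the sizes would hold.

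EGF family ligands are made as membrane-anchored precursors, and metalloproteases of the ADAM family cut them free. All of them bind EGFR; epiregulin (Ereg), betacellulin (Btc) and heparin-binding EGF-like growth factor (Hbegf) also bind ERBB4. ERBB2 has no known ligand of its own and serves as a dimer partner, while ERBB3 binds neuregulins and has little kinase activity. In squamous epithelia the pathway is known for driving growth and for restraining differentiation.

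The ligands went in opposite directions. In the line labelled S1, 3 of the 7 ligand genes were at least 2-fold higher (Areg, Hbegf and Btc), 1 was at least 2-fold lower (Ereg), and 3 differed by less than 2-fold (Egf, Tgfa and Epgn). Of the 3 receptor genes, Egfr was at least 2-fold lower and 0 were at least 2-fold higher. By gene, 3 of the 10 were thus at least 2-fold higher, where 4.69% of all genes were, and 2 were at least 2-fold lower, where 5.08% were. By probe set, 5 of 21 were at least 2-fold higher, beside 6.73% of all probe sets, and 5 were at least 2-fold lower, beside 4.72%. Since the family was taken up with these values known, nothing is read from the counts against the background. The median log2 fold change over the 10 genes was -0.11, against -0.04 over all genes, with higher members on one side and lower members on the other. In cultures measured in bulk, fewer cells with a transcript and less transcript per cell cannot be told apart.

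**Figure D1:**
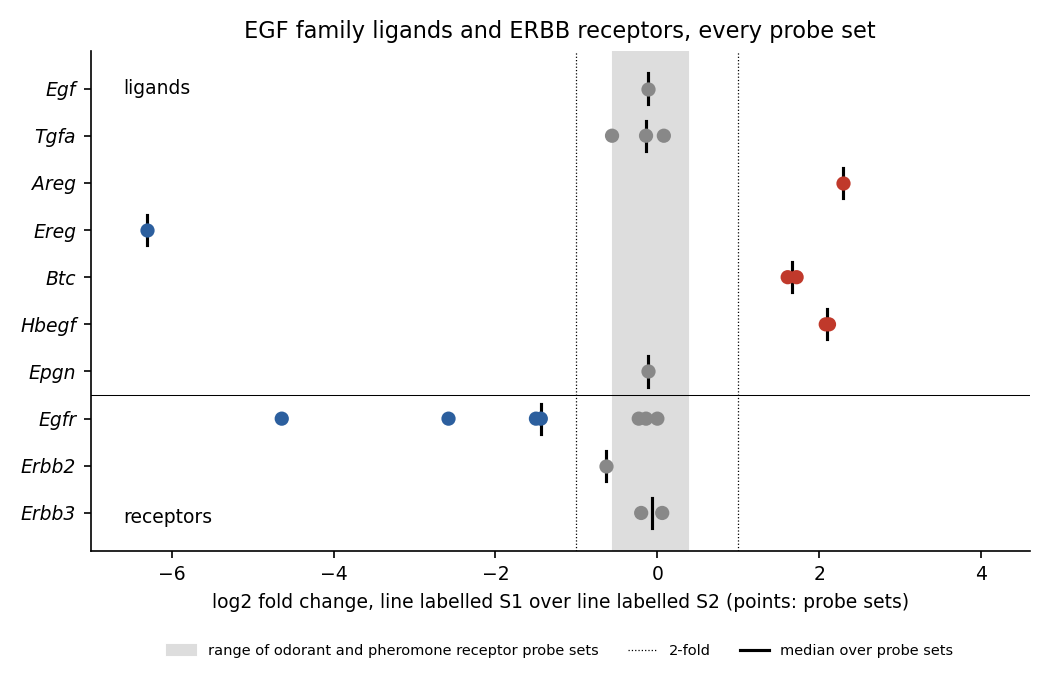
Log2 fold change (x axis) of the line labelled S1 over the line labelled S2 at each of the 21 probe sets (points; red at least 2-fold higher, blue at least 2-fold lower, grey under 2-fold) of the 10 genes (rows), with the median over probe sets as a black bar, dotted lines at 2-fold and, in grey, the range of 79 odorant and pheromone receptor probe sets. Areg, Btc and Hbegf lie to the right of 2-fold at every probe set, Ereg lies far to the left at -6.30, and the 7 probe sets of Egfr spread from -4.64 to 0.00.

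Epiregulin, a ligand that keratinocytes and wounded epithelia are known to secrete, showed the largest difference of the family. In the authors' deposited table its 1 probe set had a signed fold change of -78.7, which is a log2 value of -6.30. This was the 11th lowest of the 45101 probe sets, and by gene the 8th lowest of 20679. The value rests on a single probe set, so no second reading of Ereg stands beside it. Under the alternative processing runs its log2 value came no nearer to 0 than -5.85. The rules for probe sets could not change it, and centring only shifts every gene equally. These runs are therefore no check of the Ereg reading.

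Amphiregulin (Areg), a ligand with a heparin-binding stretch that is known as an autocrine growth factor of keratinocytes, was 4.90-fold higher in the line labelled S1 at its 1 probe set (log2 fold change 2.29, percentile 99.4 of all genes). Hbegf, a ligand induced in migrating and stressed epithelium, was higher at both of its probe sets, at 4.22-fold and 4.34-fold. Hbegf thus had a median of 2.10 on the log2 scale (percentile 99.2). Btc, betacellulin, was higher at both of its probe sets, at 3.05-fold and 3.30-fold, with a median log2 fold change of 1.66 and percentile 98.5. Both probe sets of Hbegf and both of Btc lay within 0.11 of each other on the log2 scale, against a pooled SD of 0.49 between probe sets of the same gene over the 9609 genes that have several. The order of the 3 medians was Areg, Hbegf, Btc, but Areg and Hbegf were 0.20 apart and Areg and Btc 0.63 apart, with no replicate spread to set these gaps against.

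The 3 other ligands were close to equal in the lines. Egf, whose precursor is large and carries many EGF repeats, had a log2 fold change of -0.11 at 1 probe set. Epgn, epigen, had a log2 fold change of -0.12 at 1 probe set. The 3 probe sets of Tgfa, which encodes transforming growth factor α, were at -0.56, -0.14 and 0.08, and the last is of a kind that can also bind related transcripts. For scale, the 79 probe sets of odorant and pheromone receptor genes, taken here as silent in both lines, ran from -0.55 to 0.38. The medians of Egf, Epgn, Tgfa and Erbb3 lay in that range. Because no signal is given, a value near 0 can belong to a transcript that is equal in both lines or to one that is absent from both.

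Differences between members do not depend on a common scaling factor between the arrays. A correction that varies with signal could change them, and the background correction and normalization are not given. Each ratio to Ereg rests on the single probe set of Ereg, whose signal is unknown. The ratio of Areg to Ereg was 385-fold higher in the line labelled S1 than in the line labelled S2, a log2 difference of 8.59. The ratio of Hbegf to Ereg was 336-fold higher (8.39) and that of Btc to Ereg 249-fold higher (7.96). Against the receptor, the ratio of Areg to Egfr was 13.3-fold higher, that of Hbegf to Egfr 11.6-fold and that of Btc to Egfr 8.63-fold, each by the median over the probe sets of Egfr. Set against single probe sets of Egfr, the first ratio ran from 4.90-fold to 122-fold, the second from 4.28-fold to 106-fold and the third from 3.17-fold to 78.8-fold. These ratios show unequal change and say nothing of which transcript was more abundant.

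**Figure D2:**
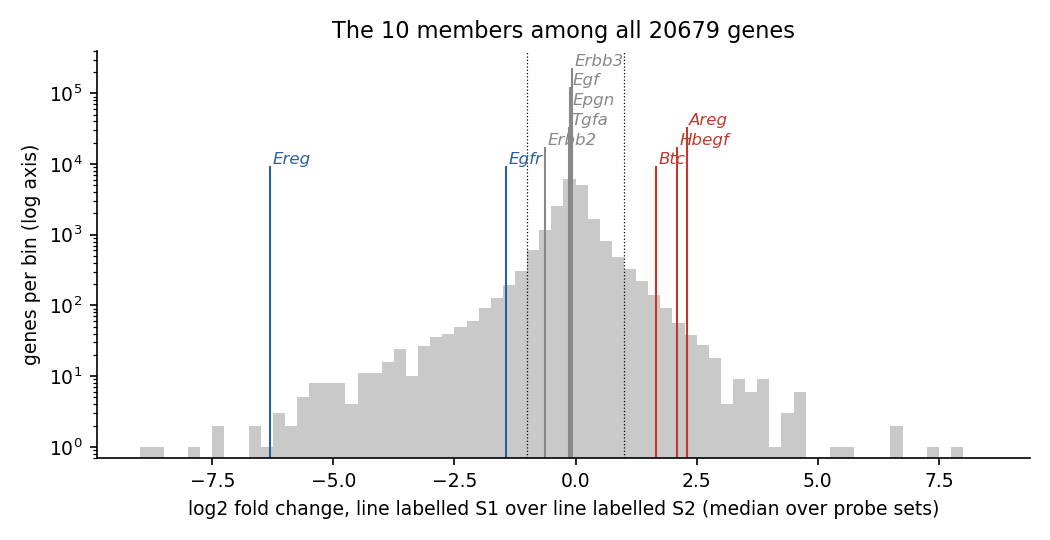
Number of genes (y axis, log scale) by log2 fold change of the line labelled S1 over the line labelled S2 (x axis, bins of equal width, median over probe sets) for all 20679 genes, with the 10 family genes as vertical lines (coloured by the same 2-fold threshold, red higher, blue lower; their heights only place the names) and dotted lines at 2-fold. Ereg at -6.30 lies in the sparse lower tail, Areg, Hbegf and Btc lie between 1.66 and 2.29 in the upper tail, and the other members lie nearer to 0.

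Among the receptors, Egfr, the receptor shared by all 7 ligands, had 7 probe sets that did not give 1 size. In the authors' deposited table their signed fold changes were -24.9, -5.99, -2.82, -2.72, -1.17, -1.10 and 1.00. The first 4 were at least 2-fold lower in the line labelled S1, and the other 3 lay in the range of the odorant and pheromone receptor probe sets. None was above 1.00. The median of Egfr was -1.44 on the log2 scale (2.72-fold lower, percentile 2.82), and its probe sets spanned 4.64 on that scale. Centred on the poly-A control probe sets instead of as deposited, the median was -1.0, just under 2-fold, which ends the call. The size depended on the probe set: over all 7 it ran from 1.00-fold, which is no difference, to 24.9-fold lower. Which transcript or exon each probe set reads was not analysed here. The 5′ and 3′ control probe sets of Actb and Gapdh, which reveal unequal RNA degradation between arrays, differed by 0.09 and 0.07 on the log2 scale.

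Erbb2, the dimer partner without a ligand, was 1.55-fold lower at its 1 probe set (log2 fold change -0.63), just outside the range of the odorant and pheromone receptor probe sets and short of 2-fold. Erbb3 had probe sets at -0.20 and 0.06, with a median of -0.07. As deposited all 3 receptor medians were below 0, from -1.44 to -0.07, but centred on the poly-A control probe sets Erbb3 was at 0.38 and Erbb2 at -0.18, so the sign of Erbb3 depends on the scaling. The gap between Erbb2 and Egfr was 0.81 on the log2 scale, smaller than the range over the probe sets of Egfr.

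Epgn, Ereg, Areg and Btc lie in this order on mouse chromosome 5 in RefSeq's gene table (GRCm38.p6), with 3 other genes between them. Their positions were not used beyond this order, since the build behind the array table is not named. Side by side, Epgn was at -0.12, Ereg at -6.30, Areg at 2.29 and Btc at 1.66 on the log2 scale, so that the pair of direct neighbours Ereg and Areg were at opposite ends of the family. Of the 3 genes between them, 1 has a value, the long non-coding gene Gm19619 at -0.06. On the flanks, 5 genes were taken on each side, and of those with a value Cxcl1, a neutrophil-attracting chemokine, was lower at -2.77 (3 probe sets from -2.98 to -1.44). The chemokine genes Cxcl2 and Cxcl15 were at -0.07 and 0.07. Mthfd2l, a folate enzyme gene, was at 0.69 with 4 probe sets from -1.64 to 0.87, and Parm1 was at -0.79. No single direction ran along the 10 genes with values in this stretch of 17.

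**Figure D3:**
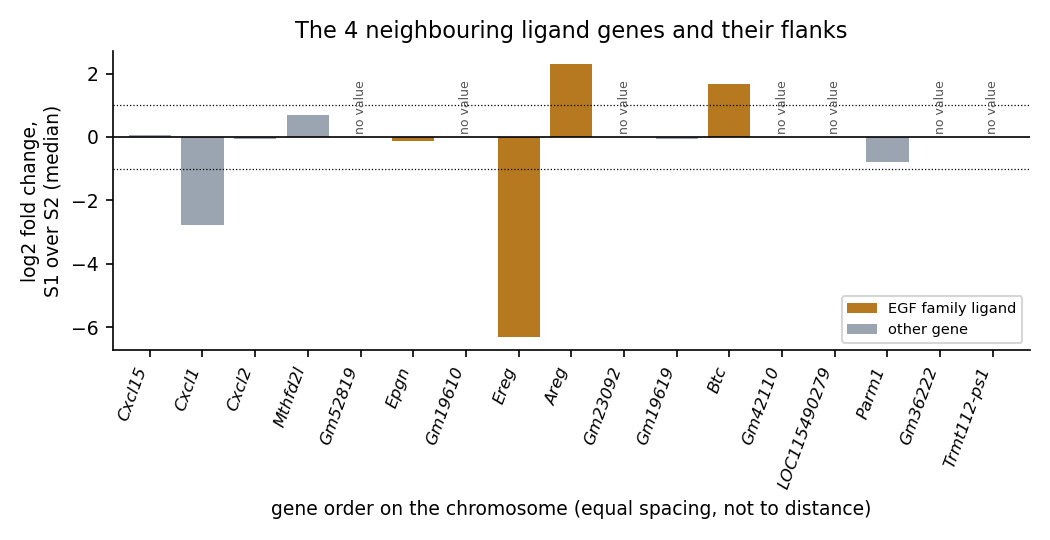
Median log2 fold change of the line labelled S1 over the line labelled S2 (y axis) for the 17 genes from the fifth before Epgn to the fifth after Btc in chromosomal order (x axis, equal spacing), with ligand genes in brown, other genes in grey and dotted lines at 2-fold. Ereg at -6.30 stands beside Areg at 2.29, and 7 genes without a probe set are marked as having no value.

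The bases before the start sites of some of these genes are shown as a description. RefSeq's promoter table (GRCm38.p6) matched 7 of the 10 genes, and Ereg, Hbegf and Erbb3 are not in it. Ereg was the lower ligand of chromosome 5, so the windows cannot show how it differs from its neighbours. The 250 bases before the start are printed, 5′ to 3′ on the gene's strand, for Areg, Btc and Epgn of chromosome 5 and for Egfr. Capitals mark every match to 7 motifs searched on both strands: the AP-1 site TGANTCA, the full cAMP response element TGACGTCA and its core TGACG, the TATA box TATAAA, the GC box GGGCGG, the κB site and the CArG box. The full cAMP response element overlaps its own core on both strands.

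Areg, higher in the line labelled S1 (chr5:91139349-91139598, plus strand): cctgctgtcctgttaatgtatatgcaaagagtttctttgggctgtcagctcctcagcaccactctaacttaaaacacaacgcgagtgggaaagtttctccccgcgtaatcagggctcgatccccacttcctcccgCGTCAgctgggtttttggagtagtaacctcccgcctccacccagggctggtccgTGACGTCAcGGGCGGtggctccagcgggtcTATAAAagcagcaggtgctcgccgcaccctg

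Btc, higher in the line labelled S1 (chr5:91402995-91403244, minus strand): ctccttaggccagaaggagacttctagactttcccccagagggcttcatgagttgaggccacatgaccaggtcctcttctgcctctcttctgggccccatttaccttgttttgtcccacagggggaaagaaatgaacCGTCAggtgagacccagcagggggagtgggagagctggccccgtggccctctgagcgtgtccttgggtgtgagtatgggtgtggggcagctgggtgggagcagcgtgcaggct

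Epgn, close to equal in the lines (chr5:91027267-91027516, plus strand): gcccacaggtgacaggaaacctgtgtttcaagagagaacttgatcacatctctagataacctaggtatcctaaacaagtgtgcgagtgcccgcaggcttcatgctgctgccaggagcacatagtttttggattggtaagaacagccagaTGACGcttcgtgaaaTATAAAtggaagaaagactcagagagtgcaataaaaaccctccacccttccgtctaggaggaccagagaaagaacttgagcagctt

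Egfr, lower in the line labelled S1 (chr11:16751953-16752202, plus strand): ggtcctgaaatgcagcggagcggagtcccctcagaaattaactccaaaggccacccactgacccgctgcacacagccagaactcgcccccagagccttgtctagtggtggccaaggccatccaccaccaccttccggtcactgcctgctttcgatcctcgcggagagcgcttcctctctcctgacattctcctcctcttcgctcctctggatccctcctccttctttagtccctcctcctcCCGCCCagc

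The Areg window held a full cAMP response element from base 61 to base 54 before the start, a GC box from base 52 to 47 and a TATA box from base 31 to 26, besides a further core of the response element on the other strand at bases 115 to 111. Of 32851 promoter windows of this length in the table, 1.55% held the full cAMP response element, 12.4% a TATA box and 32.7% a GC box. The Btc window held 1 match, to the core TGACG, at bases 113 to 109 on the other strand, which 17.8% of windows held. The Epgn window held that core at bases 101 to 97 and TATAAA at bases 86 to 81. The Egfr window held 1 GC box on the other strand, at bases 9 to 4. None of the 4 windows held the AP-1 site (6.75% of windows), the κB site (7.25%) or the CArG box (1.47%). A match describes the letters only, and the binding of no factor was measured.

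Beyond the 10 genes, 71 genes of the pathway in 6 lists were read. In the line labelled S1, 6 of the 71 were at least 2-fold higher, 3 reached 2-fold in the other direction and 62 differed by less than 2-fold. Of all genes 4.69% passed 2-fold upward and 5.08% downward, which is the background for each list below. Their median log2 fold change was -0.06, close to that of all genes (-0.04). The split depends on the scaling: centred on the poly-A control probe sets, 13 of the 71 were at least 2-fold higher and 0 lower, where 9.92% and 2.82% of all genes were.

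In the list of Erbb4 and the neuregulins, Erbb4 itself was at -0.26 at 1 probe set. The neuregulin genes ran from -0.50 for Nrg1 to 0.19 for Nrg4, and 0 of the 5 genes in this list reached 2-fold. Among 9 genes of ligand release, 1 passed 2-fold, upward, and the list's median was 0.17. That gene was Adam12, a metalloprotease known to shed HB-EGF, at 2.10-fold and 3.06-fold at its pair of probe sets. Adam17, the main sheddase of amphiregulin, HB-EGF and TGFα, was under 2-fold, with its 3 probe sets between 1.46-fold and 1.59-fold higher. Adam10, the main sheddase of betacellulin, had 4 probe sets from 1.22-fold to 1.93-fold higher. Timp3, the inhibitor of ADAM17, had a median log2 fold change of -0.98, just short of 2-fold, with 4 probe sets from -1.43 to -0.77. Adam17, Adam10 and Timp3 were named after their values were seen. Of the rest of this list, Rhbdf2 was at 0.33 and Adam9 at 0.17, while Rhbdl2, Adam15 and Rhbdf1 were at -0.10, -0.14 and -0.27.

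Of the 14 adaptors and early signalling genes, 3 passed 2-fold upward and 0 downward, around a list median of -0.08. Sos2, an exchange factor that loads RAS with GTP, was 3.44-fold higher at its 1 probe set. Pik3ca, the catalytic subunit of a phosphoinositide 3-kinase, had a log2 median of 1.60, with 4 of its 6 probe sets between 3.03-fold and 3.33-fold higher and the others at 1.13-fold and 1.66-fold. Eps8, a substrate of the EGF receptor that acts on actin, was 2.42-fold to 2.45-fold higher at 3 probe sets. Gab1, a docking protein of the receptor, had the lowest median, at -0.91.

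Of 14 genes from RAS to ERK and AKT, 1 passed 2-fold upward and 1 downward, around a list median of 0.08. Rasa1, which switches RAS off, was higher at all 3 probe sets, by 2.43-fold to 2.86-fold. Mapk3, which encodes ERK1, was 2.30-fold lower at its 1 probe set. Nras had a log2 median of 0.97, just under 2-fold, and its 3 probe sets disagreed, from -0.64 to 1.09. Of 14 inhibitors and turnover genes of the receptor, 0 reached 2-fold in either direction and the median was -0.05. The lowest was Lrig1, a membrane protein that restrains ERBB receptors, at a log2 median of -0.89. The highest was Eps15, an endocytic adaptor, at 0.80 with probe sets from -0.06 to 1.18. Errfi1, the feedback inhibitor MIG6, was 1.60-fold and 1.64-fold lower at its pair of probe sets.

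Of 15 transcripts known to be induced by EGF receptor signalling, 1 passed 2-fold upward and 2 downward, around a list median of -0.32. Egr1, an immediate-early transcription factor, was 3.45-fold higher at its 1 probe set. Spry2, a feedback inhibitor of receptor signalling, was lower at both probe sets (log2 fold change -1.49 and -1.18), and Dusp4, a phosphatase of ERK, was 2.45-fold lower at its 1 probe set. By their medians the other 12 stayed within 2-fold. Single probe sets passed it for Egr3 (2 probe sets, at -0.37 and 1.16) and for Spry4 (4 probe sets, from -1.15 to -0.16).

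**Figure D4:**
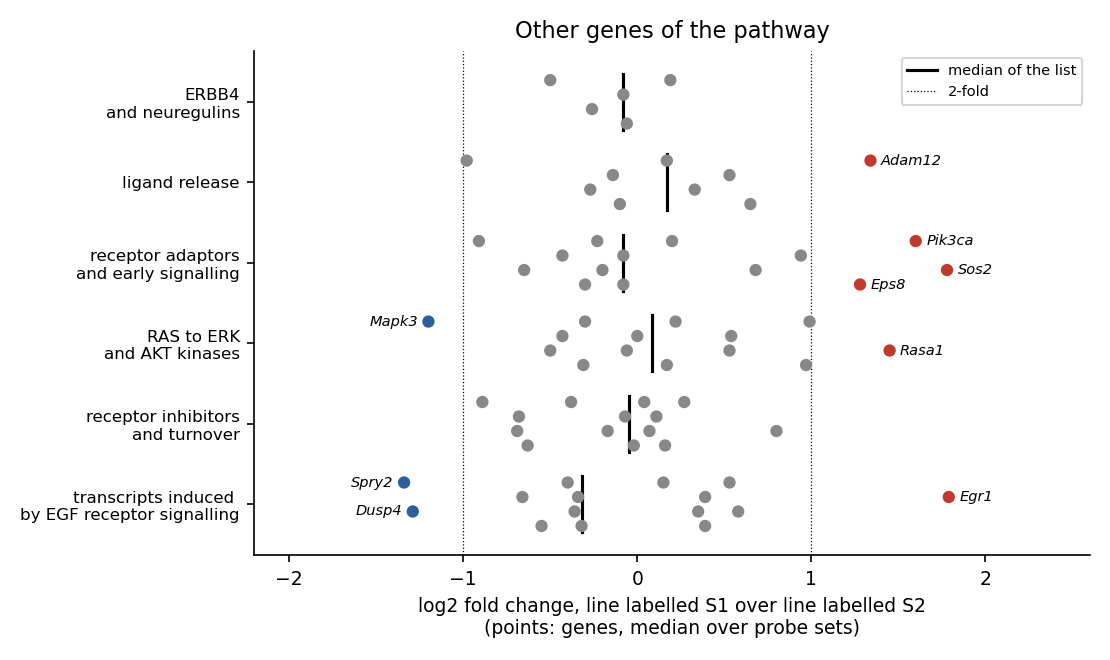
Log2 fold change of the line labelled S1 over the line labelled S2 (x axis) for the 71 other genes of the pathway (points, median over probe sets) in 6 lists (rows), with each list's median as a black bar and dotted lines at 2-fold. The 9 genes past 2-fold are named, 6 higher (red) and 3 lower (blue), the vertical offset of points within a row has no meaning, and every list's median lies between -0.32 and 0.17.

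Markers of cell types were read beside these results, where 4.69% of all genes passed 2-fold upward and 5.08% downward. Of 13 measured squamous and epithelial markers (14 listed, Dsg3 without a probe set under that name), 0 passed 2-fold upward and 1 downward (Perp at -1.17). The highest, Krt8, was at 0.37. Under 2-fold, Ivl was at -0.76, with probe sets at -1.18 and -0.33. Krt5, Cdh1, Krt17 and Trp63 ran from -0.07 to -0.09, and Krt14, Krt18, Cldn4, Epcam, Krt6a and Sfn from 0.36 to 0.08. Of 11 fibroblast markers, 4 were at least 2-fold lower in the line labelled S1, as Ereg and Egfr were, where 5.08% of all genes were, with a list median of -0.91. These were Mfap5 at -3.33, Fap at -3.00, Col3a1 at -2.23 and Pdgfrb at -1.16. The other fibroblast markers were under 2-fold. Dcn (0.42) and Thy1 (0.17) were higher, and Col1a2, Postn, Pdgfra, Col1a1 and Lum ran from -0.11 to -0.99. Of 10 mesenchymal markers, 1 passed 2-fold upward (Twist1 at 1.14) and 2 downward (Cdh11 at -5.44 and Snai1 at -1.90). Under 2-fold, Cdh2, Zeb1, Zeb2, Snai2 and Vim were higher, from 0.80 to 0.09, and Fn1 and Twist2 were lower, at -0.92 and -0.91. Of 8 immune and 4 endothelial markers, 0 reached 2-fold. The part of the fibroblast and mesenchymal markers in the values of Ereg and Egfr was not tested. The levels of all these markers are unknown, so their presence in either line could not be checked.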

How the data were processed

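The 2 lines were measured on Affymetrix mouse expression arrays. Per the methods, the authors labelled equal amounts of RNA and analysed the arrays in Partek Genomics Suite; the submitters' processing notes name MAS5, and its role, the background correction, the normalization and the number of arrays per line are not given in the sources used here. The authors deposited 1 signed linear fold change per probe set, S1 over S2, a comparison of their own; it was used because no values per sample are at hand.

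Each fold change was turned into a log2 value with its sign. A gene was given the median of the probe sets naming only that gene; 5797 probe sets carry no gene name and 1280 carry several. Counts rest on a size of 2-fold, since 1 sample per line allows no test. Members, pathway lists, marker lists and motifs were chosen with earlier results of these data known. All 10 members were named. Of a list, the genes past 2-fold by their median were named (at most 4 in each direction) or, where it had none, its extremes. Adam17, Adam10, Timp3, Nras, Gab1, Errfi1, Egr3 and Spry4 were added after their values were seen. So were the rest of the ligand release list and some markers under 2-fold. The steps from probe set to gene value were tested on simulated data with a smaller spread between probe sets than in these data. That test checked the code and not the readings. Python 3.11.15, numpy 2.4.6, pandas 2.3.3 and matplotlib 3.10.9 were used.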

Additional observations from a re-analysis of the deposited data

How the results depend on the processing

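No paired analysis was possible because each line has 1 sample. The alternatives were 1.5-fold and 4-fold thresholds, leaving out probe sets open to cross-hybridisation or naming several genes, centring on the overall median or on 24 poly-A control probe sets (median log2 fold change -0.45), and the mean or the largest change over probe sets. Of 34 values for the member counts and their median, 30 stayed within 1.5 times or within the SD between probe sets. At 4-fold the member probe sets were 3 higher and 3 lower, and the member genes were 2 higher (Areg and Hbegf) and 1 lower (Ereg), where 0.895% and 1.60% of all genes were. Centring on the poly-A controls shifted every value up by 0.45, so Egf, Tgfa, Epgn and Erbb3, all near 0, turned positive (0.31 to 0.38) and the members' median was 0.33; 1 member gene was at least 2-fold lower, because Egfr then had a log2 value of -1.0, just under 2-fold. Of 60 values for single member genes, 59 moved by less than that SD and 0 changed sign past 2-fold; Egfr was -4.64 at the probe set that differed most. The lowest value of Areg, Hbegf and Btc under these settings was 1.66. The 60 values had little room to move, so they are no check of the readings. Genes with 1 probe set, 5 of the 10, cannot move with the rule for probe sets. Of the member probe sets, 0 name several genes and 1 is open to cross-hybridisation. The poly-A shift of 0.45 is itself below the SD of 0.49. For the 6 pathway lists, alternatives added after seeing the data moved 28 of 84 counts, 13 of them through the threshold alone; the totals over the 71 genes went from 6 higher and 3 lower to 13 and 0 centred on the poly-A controls, 16 and 7 by the most different probe set (7.95% and 7.56% of all genes), 12 and 11 at 1.5-fold (9.27% and 11.4%) and 0 and 0 at 4-fold. Precision is unknown, since the table gives no replicate, number of arrays or signal over background.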
